A study of Mus musculus with 5 samples.

Results

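The keratin genes were followed in the luminal layer of the mouse uterus from day 3 of pregnancy to the morning of day 5, when the embryo is attached. Members were chosen by name alone, as every gene whose symbol is Krt followed by a number and at most 1 letter, which gave 52 of the 23420 genes counted. Tissue came from wildtype C57BL/6N females, with day 1 set at the vaginal plug, and the luminal layer was cut from sections by laser microdissection. RNA-seq gave 5 libraries, 1 for each condition. They were taken on day 3 in the morning, on day 4 in the morning and the evening, and on day 5 in the morning from the layer away from the attached embryo (marked M pole in the count table) and from the layer around it (marked AM pole). In the day 5 libraries, place relative to the embryo and pole of the uterus go together and cannot be told apart. On day 5 the mice had also received Chicago blue dye to show the implantation sites, in both of the day 5 groups. With 1 library per condition no difference below has a replicate check or a p-value, and brackets give exact 95% Clopper-Pearson intervals that cover counting error only. The methods describe pooling of RNA from independent samples for other groups of the study, and whether it applies to these wildtype libraries is not given in the sources used here.

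Keratins are the intermediate filament proteins of epithelial cells. A filament is built from pairs of a smaller, acidic type I chain and a larger, neutral to basic type II chain, so that an epithelial cell needs a gene of each type. Single-layered epithelia such as the luminal epithelium of the uterus mainly use Krt8 (type II) with Krt18 and Krt19 (type I), stratified epithelia use other pairs in their basal and upper layers, Krt6a, Krt6b, Krt16 and Krt17 are known for their induction in wounded or stressed skin, and a large set serves the hair follicle. Trophoblast, the outer layer of the embryo, is an epithelium as well and uses simple epithelial keratins.

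Of the 52 genes, 27 code for type I and 24 for type II chains, and Krt222 was put in neither class. On the coordinates of the count table (GRCm38/mm10), 27 genes lie on chromosome 11 and 25 on chromosome 15, where the type I gene Krt18 sits beside the type II gene Krt8. By their textbook use, 6 were grouped as simple epithelial, 3 as basal, 4 as stress and wound, 13 as suprabasal, 24 as hair and 2 as other genes.

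The starts of 4 simple epithelial genes are shown, Krt18, Krt8 and Krt7 because they were abundant in every library and Krt20 because it was counted mostly around the embryo. Each line is the 250 bases before the RefSeq start (GRCm38.p6, 5′ to 3′ along the gene), with capitals for any match to the 6 motifs named after them.
Krt18, chr15:102027966-102028215, plus strand: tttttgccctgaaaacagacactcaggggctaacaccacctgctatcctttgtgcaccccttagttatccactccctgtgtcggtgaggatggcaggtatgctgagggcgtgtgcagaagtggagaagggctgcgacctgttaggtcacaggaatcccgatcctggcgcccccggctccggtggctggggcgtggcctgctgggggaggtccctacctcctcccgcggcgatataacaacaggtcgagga
Krt8, chr15:102004343-102004592, minus strand: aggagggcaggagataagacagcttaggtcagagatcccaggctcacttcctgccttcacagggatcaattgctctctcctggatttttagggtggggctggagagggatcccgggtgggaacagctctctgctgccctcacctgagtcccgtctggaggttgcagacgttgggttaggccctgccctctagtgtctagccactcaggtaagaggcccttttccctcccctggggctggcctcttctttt
Krt7, chr15:101412153-101412402, plus strand: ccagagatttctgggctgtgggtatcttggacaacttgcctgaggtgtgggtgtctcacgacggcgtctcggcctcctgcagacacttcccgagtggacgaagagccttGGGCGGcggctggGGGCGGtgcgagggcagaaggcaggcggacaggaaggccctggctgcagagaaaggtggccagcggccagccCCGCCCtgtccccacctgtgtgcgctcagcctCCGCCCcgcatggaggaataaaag
Krt20, chr11:99438154-99438403, minus strand: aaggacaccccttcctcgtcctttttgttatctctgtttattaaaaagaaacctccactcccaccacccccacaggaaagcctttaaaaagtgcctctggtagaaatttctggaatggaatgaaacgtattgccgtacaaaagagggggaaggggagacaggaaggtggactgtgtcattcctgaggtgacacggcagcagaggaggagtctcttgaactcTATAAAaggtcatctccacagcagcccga
RefSeq entries were matched for 35 of the 52 genes and for 15 of the 27 with at least 10 counts in some library. Krt19, Krt15, Krt6a, Krt6b, Krt16 and Krt17 were among those without an entry. The stress and wound group was therefore not searched for motifs. The motifs were searched on both strands without overlap between different motifs being removed. The TATA box was searched as TATAAA and was found in 12.4% of 32851 promoters of the same length. The CCAAT box was found by these letters in 33.8% of them, and the GC box, searched as GGGCGG, in 32.7%. The AP-1 motif was searched as TGANTCA and stood in 6.75% of promoters, the STAT motif as TTCNNNGAA in 7.02% and the Grhl motif as AACCNGTT in 1.79%. Krt7 held 4 GC boxes, Krt20 held 1 TATA box, and Krt8 and Krt18 held none of the 6 in these windows. Over the 35 genes, 17 held a TATA box, 14 held a CCAAT box, 4 held the STAT motif, 2 held a GC box (Krt7 and Krt75), 1 held the AP-1 motif (Krt13) and 0 held the Grhl motif. The RefSeq start of Krt14 lay 1480 bases from the gene start in the count table, so its window fell within the gene. Krt13 had more than 1 entry, with starts 918 and 71 bases from its gene start, and both held the AP-1 motif.

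Krt6a and Krt6b are neighbouring type II genes that are nearly copies of each other, and their coding sequences (1659 and 1662 bases in GENCODE vM21) were 97.8% identical over 1659 aligned bases, with a longest identical run of 280 bases. The 60 bases where they differ most, in exon 4, are given with the 10 differing bases in capitals, since only reads over such places can be assigned to 1 of the pair.
Krt6a, chr15:101692484-101692543, minus strand: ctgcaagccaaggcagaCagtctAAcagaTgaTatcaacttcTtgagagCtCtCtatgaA
Krt6b, chr15:101678303-101678362, minus strand: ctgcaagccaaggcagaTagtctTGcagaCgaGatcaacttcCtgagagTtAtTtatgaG
Of all 50-base windows of the Krt6a transcript, 62.0% occurred in another gene, and 43.6% occurred in Krt6b. The share was 50.1% for Krt6b, 37.6% for Krt16, 14.4% for Krt14, 29.7% for Krt8 (with the pseudogene Krt8-ps), 42.0% for Krt12 and 3.99% for Krt17. It was 0.72% for Krt18 and 0% for Krt19 and Krt20. How reads with several alignments were counted is not given in the sources used here, so the split between Krt6a and Krt6b and the levels of the other genes with high shares are uncertain.

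The libraries held 15334674 to 19529491 counts. Counts were scaled by TMM to counts per 1e6 (CPM), and levels are compared between genes as RPKM, which also divides by gene length in kilobases. The floor of 3 counts lay between 0.161 and 0.190 CPM. Scaling by library totals instead moved the median over all genes by -0.29 on the log2 scale from day 3 to day 4 morning, by 0.28 from day 4 morning to day 5 away from the embryo and by -0.36 between the day 5 libraries. The labelled tissue was checked with genes outside the family. All 6 epithelial markers (such as Epcam and Cdh1) were counted in every library, with summed levels from 2960 to 5484 CPM. Of the luminal epithelial markers, Calb1 had 94960, 143278, 73114, 1357 and 306 counts in the order of the libraries and Lpar3 had 4630, 12268, 9935, 1102 and 717, so both were low in the day 5 libraries. Their part in the keratin levels was not tested. The 8 stromal markers summed to 349 to 547 CPM. Embryo markers stood apart in 1 library. Of 9 trophoblast and embryo markers, 3 or 4 were counted in the other 4 libraries and 8 around the embryo, where their sum was 104 CPM against 3.06 to 13.1 CPM elsewhere. Cdx2, Nanog, Pou5f1 and Hand1 had 0 counts in those 4 libraries and 22, 10, 68 and 5 counts around the embryo. The part of embryonic RNA in the keratin levels of that library was not tested.

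The keratin genes together gave 50049 counts on day 3, 52695 and 36100 on the morning and evening of day 4, and on day 5 31138 in the M pole layer, away from the embryo, and 55394 in the AM pole layer around it. That was 0.326%, 0.270%, 0.218%, 0.186% and 0.289% of the library. Relative to the scaled library the sum was 1.29-fold lower on day 4 evening than on day 4 morning (log2 -0.36 [-0.38, -0.34]) and 1.76-fold lower on day 5 away from the embryo (-0.81 [-0.83, -0.79]). Around the embryo it was 1.10-fold the day 4 morning level (0.13 [0.12, 0.15]), a difference whose sign turned to -0.017 with library totals that leave out Rn45s and Lars2. Between the day 5 libraries the sum was 1.93-fold higher around the embryo (0.95 [0.93, 0.97]). In bulk tissue, fewer cells of a type and less RNA per cell cannot be told apart.

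The makeup of the family differed between the libraries. Simple epithelial genes supplied 97.6% of keratin RPKM on day 3, 98.6% and 98.4% on the morning and evening of day 4 and 98.7% away from the embryo on day 5, but 74.9% around it. The stress and wound group supplied 0.550%, 0.00579%, 0.162% and 0.102% in the first 4 libraries and 23.8% around the embryo. The suprabasal group stayed between 0.797% and 1.20%, and the hair group between 0.0291% and 0.428%.

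**Figure D1:**
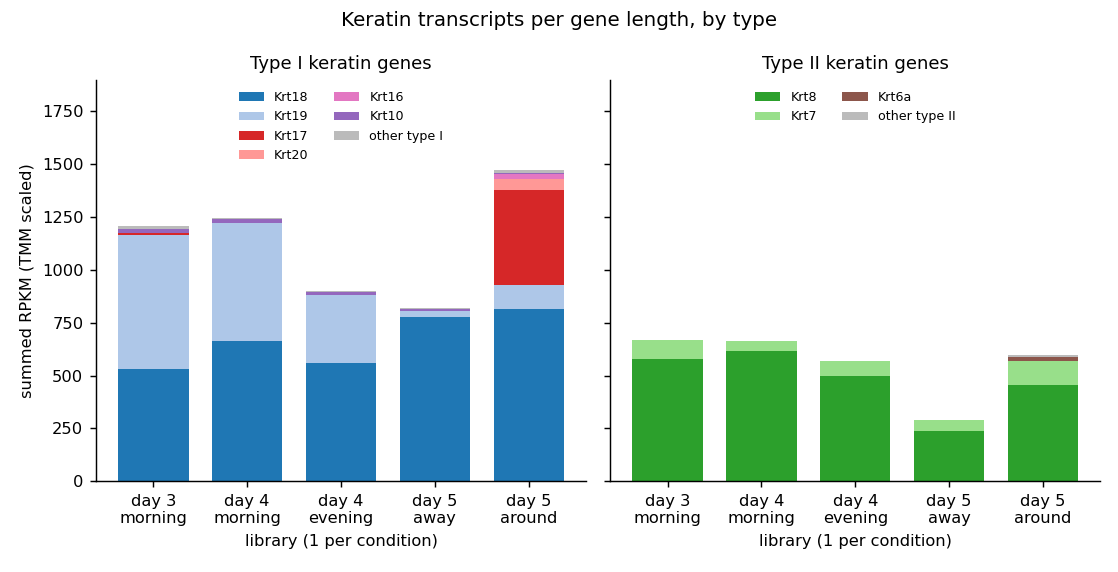
Summed RPKM of the keratin genes (vertical axis, from 0) in each of the 5 libraries (horizontal axis, 1 library per condition), with type I genes on the left and type II genes on the right and each bar stacked by gene. Krt18 and Krt19 fill the first 3 type I bars, Krt18 supplies 94.8% of the bar away from the embryo, Krt17 adds 448 RPKM around it, and the type II bar is lowest away from the embryo at 291 RPKM.

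Type I transcripts outweighed type II in every library. The ratio of type I to type II RPKM was 1.80 on day 3, 1.87 and 1.58 on the morning and evening of day 4, and on day 5 2.82 in the M pole layer and 2.46 in the AM pole layer. Without the most abundant keratin of each library, which was a type I gene throughout (Krt19 on day 3, Krt18 in the others) and so can only lower the ratio, it was 0.859, 0.871, 0.603, 0.148 and 1.10. RNA levels do not give the protein ratio, which pairing holds near equality.

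Krt18, the type I partner of Krt8 in simple epithelia, had 12973 counts on day 3, 16737 and 12369 on the morning and evening of day 4, and on day 5 20293 away from the embryo and 19600 around it. Its levels were 534, 666, 558, 777 and 813 RPKM, which placed it 86th, 74th, 102nd, 53rd and 65th among all genes. Of the 4 abundant keratins (Krt18, Krt8, Krt19 and Krt7) it had the narrowest range. Against day 4 morning the log2 ratio was 0.22 [0.19, 0.25] in the M pole layer and 0.29 [0.26, 0.32] around the embryo. The day 5 libraries differed by 0.06 [0.04, 0.09], a sign that turned under library totals.

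Krt8, the main type II chain of simple epithelia, had 18100, 20002 and 14272 counts on day 3 morning, day 4 morning and day 4 evening, then 8023 away from the embryo and 14092 around it. Its RPKM was 617 on day 4 morning, then 238 in the M pole layer and 453 in the AM pole layer. Krt8 was thus lowest where Krt18 was near its highest. Against day 4 morning it was 2.59-fold lower away from the embryo (log2 -1.37 [-1.41, -1.34]) and 1.36-fold lower around it (-0.44 [-0.48, -0.41]). The level around the embryo was 1.90-fold that away from it (0.93 [0.89, 0.97]). The 2 genes are neighbours on chromosome 15, Krt8 at 101996711-102004342 on the minus strand and Krt18 at 102028216-102032026 on the plus strand.

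Krt19, a small type I keratin of simple and ductal epithelia, had the widest range of the 4. It had 15033 counts on day 3, 13708 and 6997 on the morning and evening of day 4, and on day 5 708 away from the embryo and 2732 around it. On day 3 morning it was the most abundant keratin gene, with 630 RPKM and the 72nd rank among all genes, and away from the embryo it had 27.6 RPKM and the 2489th rank. Against day 4 morning it was 1.73-fold lower on day 4 evening (log2 -0.79 [-0.83, -0.75]), 20.1-fold lower away from the embryo (-4.33 [-4.44, -4.22]) and 4.81-fold lower around it (-2.27 [-2.33, -2.21]). The level around the embryo was 4.18-fold that away from it (2.06 [1.94, 2.18]). As a share of type I RPKM, Krt19 went from 52.2% on day 3 morning to 44.6%, 35.7%, 3.37% and 7.84%, while Krt18 went from 44.2% to 53.5%, 61.9%, 94.8% and 55.2%.

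Krt7, a type II keratin of glandular, ductal and trophoblast epithelia, followed another course. Its counts were 2466 on day 3, 1292 and 1731 on the morning and evening of day 4, and on day 5 1480 away from the embryo and 3140 around it. It was lowest on day 4 morning, 1.97-fold below day 3 morning (log2 -0.98 [-1.08, -0.88]), and highest around the embryo. There it was 2.53-fold above day 4 morning (1.34 [1.25, 1.44]) and 2.30-fold above the layer away from the embryo (1.20 [1.11, 1.29]), though the latter was 0.89 under library totals and so under 2-fold. Within type II RPKM, Krt7 supplied 13.3%, 6.82%, 12.1%, 17.2% and 19.2%, and Krt8 supplied 86.1%, 92.8%, 87.6%, 81.9% and 75.7%.

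Krt20, a type I keratin of gut and bladder surface epithelium, had 14 counts on day 3, 1 and 1 on the morning and evening of day 4, and on day 5 2 away from the embryo and 1770 around it. It was thus near or under the floor in 3 libraries and abundant in 1. The level around the embryo was 53.2 RPKM, and the ratio to the layer away from it was 958-fold [265, 7921]. Krt23, another type I keratin, was the 1 kept member that was highest away from the embryo. It had 11, 16, 13, 114 and 36 counts in the order of the libraries, which put the layer away from the embryo 6.86-fold above day 4 morning [4.05, 12.4] and the layer around it 2.35-fold above [1.27, 4.53].

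**Figure D2:**
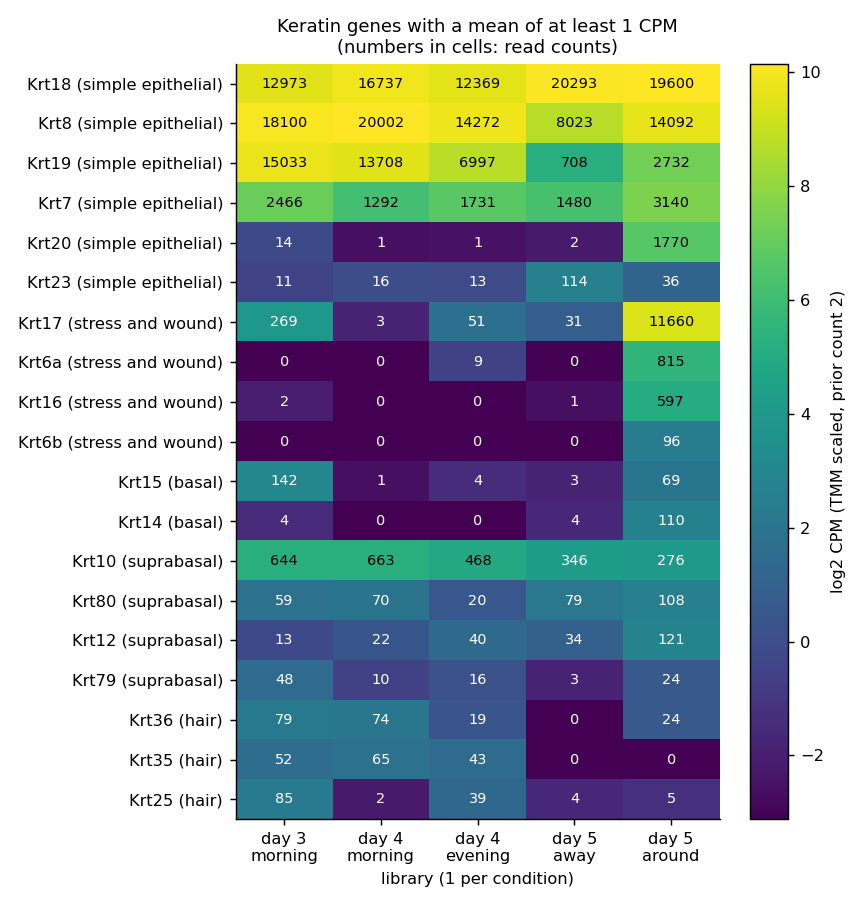
Heat map of the 19 keratin genes whose mean level was 1 CPM or more (rows) in the 5 libraries (columns, 1 per condition), coloured by log2 CPM with a prior count of 2 and with the read count printed in each cell. Krt18 and Krt8 are bright in all 5 columns, Krt19 is dimmest away from the embryo at 708 counts, and Krt17, Krt20, Krt6a and Krt16 are bright only around it among the day 5 columns.

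The 4 stress and wound genes were all highest around the embryo. Krt17, a type I keratin of skin appendages that is induced on injury, had 269 counts on day 3, 3 and 51 on the morning and evening of day 4, and on day 5 31 away from the embryo and 11660 around it. Its level there, 448 RPKM, was close to that of Krt8 and ranked 139th among all genes, against a rank of 10900 away from the embryo. The ratio around over away was 407-fold [287, 600]. From day 3 to day 4 morning Krt17 was 92.7-fold lower (ratio interval 0.00221 to 0.0319), and it was 19.3-fold higher on day 4 evening than on day 4 morning [6.24, 96.7], in each case against the 3 counts of day 4 morning. A low level before attachment was thus not the same in every library.

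Krt6a, a type II keratin that pairs with Krt16 or Krt17 in activated keratinocytes, had 9 counts on day 4 evening, 815 around the embryo and 0 in the other 3 libraries. Krt16, a type I keratin of the same setting, had 2, 0, 0, 1 and 597 counts, and Krt6b, the near copy of Krt6a, had 96 around the embryo and 0 elsewhere. Both chain types of this group were therefore counted in the same library. Around the embryo Krt6a was at least 283-fold higher than on day 4 morning, Krt16 at least 208-fold and Krt6b at least 33.4-fold, each against the floor of 3 counts. Over both chain types the group was unequal there, with 448 RPKM of Krt17 and 22.1 of Krt16 against 21.0 of Krt6a and 2.49 of Krt6b.

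Among the basal genes, which in stratified epithelia mark the layer on the basement membrane, Krt15 (type I) had 142, 1, 4, 3 and 69 counts in the order of the libraries. It was high on day 3 morning and around the embryo. The ratio around over away was 24.9-fold [8.18, 124]. Krt14, the type I chain of the basal pair, had 4, 0, 0, 4 and 110 counts, and its ratio around over away was 29.8-fold [11.3, 111]. Its type II partner Krt5 had 4 counts away from the embryo and 0 in the other 4 libraries, around the embryo included. Trp63, the transcription factor of basal cells, had 64, 25, 9, 19 and 0 counts, and so was at 0 in the library where Krt14 was highest.

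Krt10 was the most abundant suprabasal gene in every library. Krt10, the type I chain of upper epidermal layers, had 644 counts on day 3, 663 and 468 on the morning and evening of day 4, and on day 5 346 away from the embryo and 276 around it. Its pairing partner Krt1 had 10 and 4 counts on day 3 and day 4 morning and 0 later. Against day 4 morning Krt10 was 1.99-fold lower away from the embryo (log2 -0.99 [-1.18, -0.80]) and 2.30-fold lower around it (-1.20 [-1.41, -0.999]), and the interval between the day 5 libraries held 0 (-0.21 [-0.44, 0.02]).
Krt12, the type I keratin of the cornea, had 13, 22, 40, 34 and 121 counts and was 5.74-fold higher around the embryo than on day 4 morning [3.62, 9.49]. Krt80, a type II keratin of many epithelia, had 59, 70, 20, 79 and 108 counts and was 3.08-fold lower on day 4 evening than on day 4 morning. Krt79, a type II keratin of the hair follicle funnel, had 48, 10, 16, 3 and 24 counts. Krt12 and Krt80 were thus highest around the embryo and Krt79 on day 3 morning. Krt13, a type I keratin of oral and oesophageal epithelium, had 19, 3, 0, 0 and 0 counts, and Krt76, a type II keratin of the palate, had 2, 0, 2, 0 and 34.

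Hair keratins were few and low. Krt36 and Krt35, type I keratins of the hair shaft, were counted in all 3 libraries before day 5. Krt36 had 79, 74, 19, 0 and 24 counts, and Krt35 had 52, 65, 43, 0 and 0. Against day 4 morning Krt36 was at least 25.6-fold lower away from the embryo, and Krt35 was at least 22.5-fold lower there and at least 20.8-fold lower around the embryo. Both were thus at 0 in the layer away from the embryo. Krt25, a type I keratin of the inner root sheath, had 85, 2, 39, 4 and 5 counts, so that day 4 morning was low between day 3 morning and day 4 evening (22.1-fold higher on day 4 evening [5.73, 189]). Krt75, Krt84, Krt85 and Krt83, type II hair keratins, had 29, 13, 18 and 13 counts around the embryo and at most 9 in any other library. In the count table Krt85 shares exon bases on the same strand with 5430421N21Rik (812), Krt83 (530) and Krt81 (221), so reads there could be given to any of them. GENCODE vM21 also held no gene of the symbol Krt85, and Krt83 did not overlap the GENCODE gene of its symbol. What the counts of Krt85 and Krt83 stand for is uncertain. Krt222, a keratin-like gene, had 2, 13, 0, 2 and 2 counts.

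The other 25 genes gave few counts or none. The highest count of 10 of them was between 1 and 9 (Krt4, Krt5, Krt27, Krt31, Krt32, Krt33b, Krt34, Krt42, Krt73 and Krt82), and 15 had 0 in all 5 libraries, where a count of 0 allows up to 3 counts. Around the embryo 27 members were counted at least once, against 26, 21, 21 and 19 in the first 4 libraries, and 20 were at 1 CPM or more against 13, 9, 12 and 9. That library also had the most genes of any kind counted at least once, 15888 of 23420 against 15576, 15274, 15413 and 15648. All genes at 1 CPM or more were not counted for each library.

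For counts of members past 2-fold, a mean level of 1 CPM or more over the 5 libraries was required and a prior count of 2 was added, which left 19 members and 12915 genes in all. Of the 19, Krt20, Krt14, Krt16, Krt6a and Krt6b passed this filter only through the library around the embryo and so had to be higher there. Krt25 and Krt79 passed it only through day 3 morning. Their part in the counts is given by the filter and supports nothing. From day 3 to day 4 morning 0 members were higher (7.47% of all genes) and 7 were lower (11.5% of all genes). The 7 were Krt15, Krt17, Krt20, Krt25 and Krt79, with Krt14 and Krt16 going from 4 and 2 counts to 0. From day 4 morning to day 4 evening 4 were higher (background 7.21%), namely Krt6a, Krt15, Krt17 and Krt25, and 2 were lower (6.95%), Krt36 and Krt80.

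Away from the embryo on day 5, 3 members were higher than on day 4 morning (background 14.9%) and 5 were lower (14.3%). Higher were Krt23, Krt17 and Krt14, the last with 4 counts against 0, and lower were Krt8, Krt19, Krt79, Krt35 and Krt36. Around the embryo 11 were higher than on day 4 morning (background 20.7%) and 4 were lower (22.6%). The 4 lower genes were Krt19, Krt10, Krt35 and Krt36. Both comparisons share the day 4 morning library. With the filter taken over the other 4 libraries, which leaves 14 members, 6 were higher around the embryo, against 18.9% of the 12713 genes that pass it. Between the day 5 libraries 12 of the 19 were higher around the embryo (background 13.4%) and 1, Krt23, was lower (15.0%). With the filter over 4 libraries 7 of 14 were higher, against 11.6% of all genes. The median log2 difference of the 19 around the embryo from day 4 morning was 1.17 (0.76 over the 14), and that of all genes was -0.03.

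**Figure D3:**
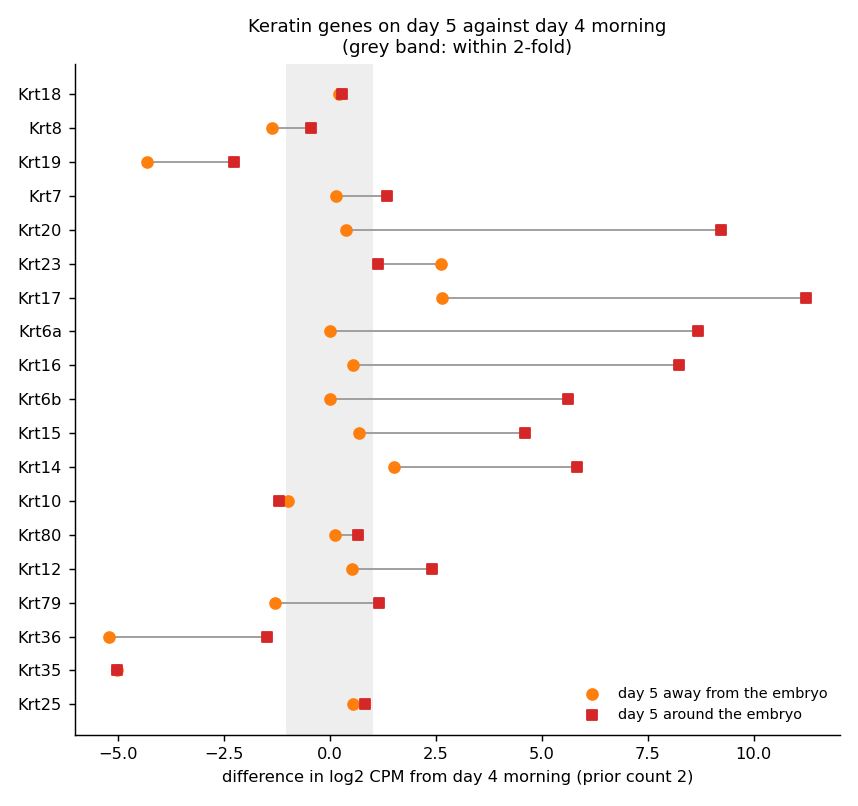
Difference in log2 CPM from day 4 morning (horizontal axis, prior count of 2) of the 19 keratin genes whose mean level was 1 CPM or more, away from the attached embryo (circles) and around it (squares), 1 library each, with a grey band for differences within 2-fold. Krt19 lies left of the band in both, Krt8 only away from the embryo, and 11 of the 19 squares lie right of it, with Krt17 farthest at 11.23.

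Some members that were highest around the embryo are neighbours, a pattern chosen after the values were seen and not tested. On chromosome 11, Krt14 (100203162-100207510), Krt16 (100246091-100248902) and Krt17 (100256217-100260989) are consecutive members on the minus strand, and all 3 were highest there. On the other side of Krt9, which had 0 counts in every library, lie Krt19 (100140811-100145919), with fewer counts around the embryo than on day 4 morning, and Krt15. On chromosome 15, Krt75, Krt6b (101676023-101680289) and Krt6a (101689928-101694305) are consecutive, with 29, 96 and 815 counts around the embryo, and the next member, Krt5, had 0. Others that were highest there, such as Krt20, Krt7, Krt12 and Krt76, lie outside these runs, and Krt14, Krt16, Krt6a and Krt6b passed the filter only through that library. The part of shared sequence in these runs was not tested, beyond the shares of shared windows above, which were lowest for Krt17 among these 3 genes of chromosome 11.

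**Figure D4:**
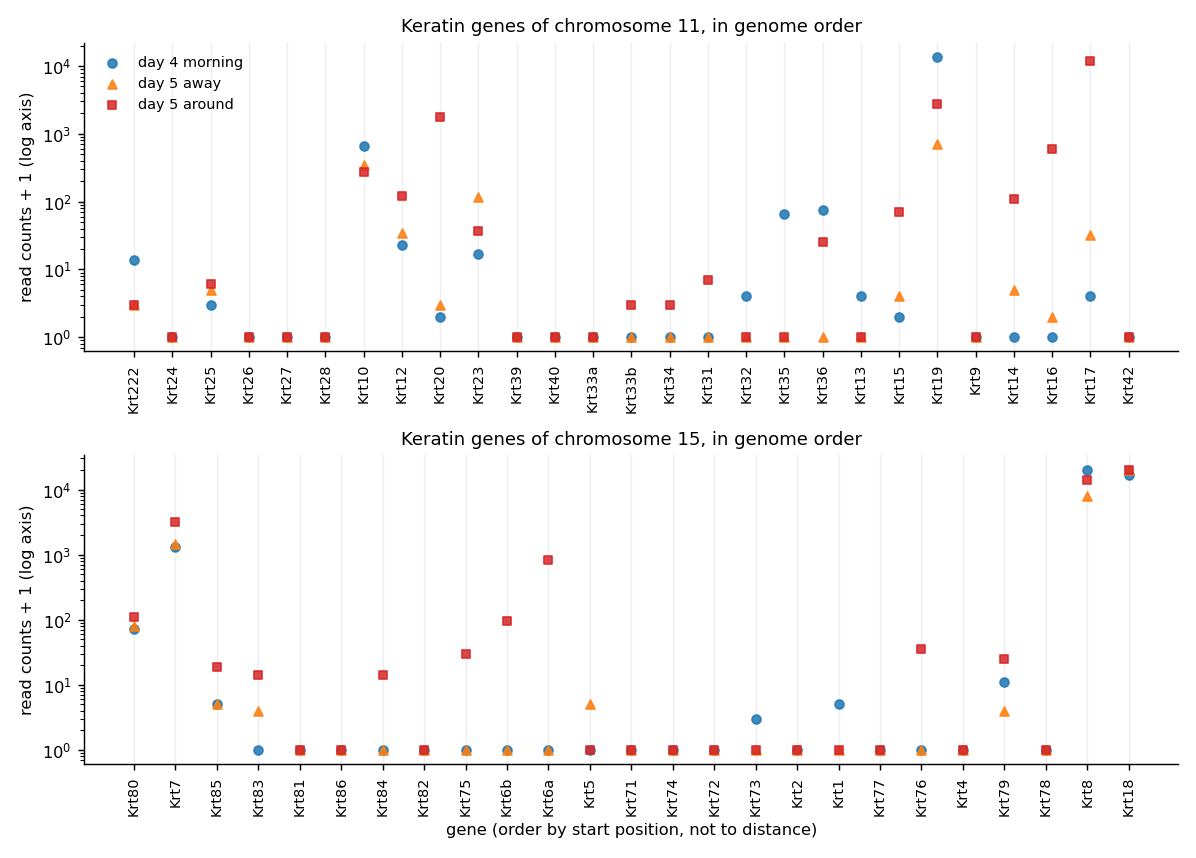
Read count plus 1 (vertical axis, log scale) of all 52 keratin genes on day 4 morning (circles) and in the M pole (triangles) and AM pole (squares) layers of day 5, 1 library each, in their order along chromosomes 11 and 15 (horizontal axis, not to distance). Krt14, Krt16 and Krt17 on chromosome 11 and Krt75, Krt6b and Krt6a on chromosome 15 are neighbours whose point around the embryo is the highest, while Krt5 next to Krt6a has 0 counts there.

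Keratin filaments end on desmosomes, the junctions between epithelial cells, and on hemidesmosomes at the basement membrane. Of 12 desmosome genes 9 were kept. From day 4 morning, 3 were higher and 0 lower in the M pole layer, and 5 were higher and 0 lower in the AM pole layer, where 14.9% and 14.3% of all genes were higher and lower in the first and 20.7% and 22.6% in the second. Pkp1, 1 of the 5, passed the filter only through the AM pole library. Perp, a desmosome membrane protein, had 3553, 3468, 4798, 13403 and 29801 counts and so was high in both day 5 libraries, 3.72-fold and 8.96-fold above day 4 morning. Pkp1, a desmosomal plaque protein of stratified epithelia, had 9, 0, 0, 1 and 253 counts. The desmosomal cadherins Dsg3 and Dsc2 had 7 and 72 counts on day 4 morning, 149 and 506 in the M pole layer and 734 and 1044 in the AM pole layer. Dsg3, Dsc2 and Perp were thus above day 4 morning in both day 5 libraries.

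Of 9 hemidesmosome and plakin genes 8 were kept, and 2 were higher and 2 lower away from the embryo, against 3 and 2 around it, with the same shares of all genes as above. Ppl, a plakin that links keratin to the cell border, had 2109, 3270, 1490, 1441 and 616 counts. Eppk1, a plakin that binds keratin bundles, had 209, 79, 195, 661 and 176 counts and was highest away from the embryo. Cd151, a partner of hemidesmosomal integrins, had the highest mean RPKM of the list over the 5 libraries, though not the highest in each, and had 860, 480, 435, 499 and 727 counts. Of 6 genes for keratin-binding proteins, 1 was higher and 0 lower in the M pole layer, and 2 were higher and 1 lower in the AM pole layer, again beside these shares. Sfn, a 14-3-3 protein that binds Krt17 and Krt18, had 1042, 142, 666, 544 and 3592 counts, so that day 4 morning was the lowest for Sfn as it was for Krt17 and Krt7. Csnk1a1, a kinase found on keratin filaments, had 5963, 6302, 5388, 4370 and 5569 counts.

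Stratified and cornified genes were read beside the stress keratins. Of the 9 genes of this list, 5 were kept, and 3 were higher and 1 lower around the embryo than on day 4 morning (20.7% and 22.6% of all genes). Tgm1 and Sbsn passed the filter only through that library and so had to be higher there, which leaves Ivl among the higher genes. Trp63, the 1 lower gene, and Lor passed the filter only through day 3 morning. Ivl, a precursor of the cornified envelope, had 81, 0, 0, 46 and 565 counts. Tgm1, the enzyme that links that envelope, had 10, 6, 4, 52 and 385, and Sbsn, a secreted epidermal protein, had 4, 15, 22, 22 and 90. Lor, the main protein of the envelope, had 67, 17, 5, 2 and 12 counts and did not follow them.

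Of 15 genes for other intermediate filaments 10 were kept, and 2 were higher and 3 lower away from the embryo, against 3 and 3 around it, with the same shares of all genes. Nefh passed the filter only through the library away from the embryo. Bfsp2 did not pass it without day 3 morning or without day 4 morning. The place of Nefh among the genes higher away from the embryo therefore depends on the filter. So does the place of Bfsp2 among the genes lower in both day 5 libraries, and neither supports anything. Lmna, the lamin of the nuclear envelope, had 2611, 2856, 3570, 2323 and 2781 counts, within 2-fold of day 4 morning in both day 5 libraries. Des, the filament of muscle that decidual stroma also makes, had 109, 293, 223, 369 and 6090 counts. It gave most of the sum of 5 smooth muscle markers around the embryo, 392 CPM against 10.8 to 31.6 CPM elsewhere. The stromal markers went both ways, with Hand2 at 2282 counts around the embryo against 70 to 389 elsewhere and Dcn at 242 against 1288 to 2033. Synm, a large filament protein that joins desmin or vimentin, had 19, 4, 31, 114 and 55 counts and Nefh, a neurofilament, 1, 2, 4, 121 and 27, with both highest away from the embryo. Gfap, the astrocyte filament, had 82, 40, 39, 0 and 0 counts and Bfsp2, a lens filament protein, 38, 45, 19, 3 and 0. The 4 endothelial markers summed to 80.1 CPM around the embryo against 9.04 to 21.0 CPM elsewhere, 3 leukocyte markers to 44.9 against 31.2 to 37.8 CPM, and 3 gland markers to 8.07 against 0 to 3.11 CPM. Cdh5 gave most of the endothelial sum there, with 1229 counts against 48 to 171 elsewhere. Kdr and Tie1 were lowest there (18 and 8 counts), and Pecam1 had 124 counts against 26 to 126 elsewhere. Cd68 gave most of the leukocyte sum there, with 670 counts against 158 to 308 elsewhere. Ptprc and Csf1r were lowest there (66 and 37 counts). Of the gland markers, Prss28 and Prss29 had 44 and 74 counts there, 21 and 35 away from the embryo and 0 before day 5. Foxa2 had 32, 51, 0, 2 and 21 counts in the order of the libraries and was highest on day 4 morning. The part of these cell types in the keratin levels was not tested.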

How the data were processed

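The luminal layer was microdissected, and RNA was amplified with the SMART-seq v.4 kit and sequenced in pairs. Per the labels and the methods of the study, reads were aligned to GRCm38/mm10 with HISAT2 and counted with featureCounts of Subread 2.0.0. The authors deposited raw counts per gene, without normalization, in 1 table that also gives exon coordinates and a gene length in bases. The annotation, strand setting and treatment of multiply aligned reads are not given in the sources used here.

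Counts were scaled by TMM (edgeR 4.0.16, R 4.3.3) and read with Python 3.11.15, pandas 2.3.3, numpy 2.4.6 and scipy 1.17.1, and plots used matplotlib 3.10.9. Log2 CPM carries a prior count of 2 and serves the counts past 2-fold, the medians and the figures that name it. It also serves the flagged Krt79 differences and the values under other scalings. All other single log2 ratios and folds use scaled counts without a prior. Folds against 0 counts use a floor of 3 counts. No test was possible with 1 library per condition, which sets only counting precision. Genes of at least 10 counts in some library were named, and genes of partner lists where most abundant per length or over 4-fold different on day 5. Steps were tested on simulated data. The members, lists and groups were chosen with earlier results of these data known. Shared windows come from GENCODE vM21 transcripts. Alternatives were DESeq2 1.42.0 size factors, library totals with and without Rn45s and Lars2, a prior of 0.5, log2(RPKM + 1), other filters, a 4-fold limit and counts not divided by length.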

Additional observations from a re-analysis of the deposited data

Results flagged for a closer look

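Krt79, a type II keratin of the hair follicle funnel, differed from day 4 morning in opposite directions in the day 5 libraries. In log2 CPM with a prior count of 2, the difference was -1.28 away from the embryo (3 counts against 10) and 1.17 around it (24 counts). These differences were not tested, since each condition had 1 library. The ratio of scaled counts away from the embryo, taken without a prior, had an interval of 0.0511 to 1.12, which includes 1.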

How the results depend on the processing

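No paired analysis was possible because each condition had 1 library. The median difference of the kept members moved between 0.58 and 1.34 around the embryo and between 1.01 and 2.12 between the day 5 libraries, and 49 differences of single members past 2-fold kept their sign in 245 alternative values, of which 19 were at or under 2-fold (such as Krt79 with log2(RPKM + 1) and Krt7 between the day 5 libraries with library totals). Counts past 2-fold moved with the filter. Without a filter (37 members), higher and lower counts were 1 and 12 from day 3 to day 4 morning, 7 and 6 to day 4 evening, 5 and 9 in the M pole layer, 19 and 8 in the AM pole layer, and 20 and 2 between the day 5 libraries. At 5 CPM (9 members) the counts that moved were 3 lower, then 2 higher and 0 lower, 1 and 2, 5 and 2, and 6 and 0. With log2(RPKM + 1) they were 3 lower on day 4 morning, 2 higher and 1 lower on day 4 evening and 1 higher away from the embryo. Past 4-fold, lower counts were 0, 3, 2 and 0 in the last 4 comparisons, and a prior of 0.5 gave 5 higher away from the embryo. The filter over the 4 libraries other than the one around the embryo was added after seeing the data and gave 4 lower on day 4 morning, 6 higher around the embryo and 7 between the day 5 libraries. The summed keratin log2 difference was 0.03, -0.36, -0.81, 0.13 and 0.95. It became 0.044, 0.18 and 1.00 with DESeq2 size factors in the first, the fourth and the fifth comparison, and -0.27, -0.31, -0.53, 0.10 and 0.63 with library totals. Without Rn45s and Lars2 in the totals it was -0.13, -0.68, -0.017 and 0.66 in all but the second, and with RPKM -0.78 and 0.90 in the third and the fifth. The type I to type II ratio on counts not divided by length was 1.42, 1.46, 1.25, 2.24 and 2.01, and without the most abundant gene 0.859, 0.871, 0.603, 0.148 and 1.10. The cause was not tested. Low counts limit the members under 100 counts, where intervals span several-fold.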
